A study of Mus musculus with 48 samples.

Results

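The 34 genes described here make cholesterol and fatty acids, move sterols, or regulate that synthesis. They were taken by gene symbol from a table of 42713 genes, and all 34 were found and passed the filter on low counts in every comparison. They fall into 5 roles: 5 regulators of the sterol regulatory element binding proteins (SREBPs), 7 genes of the mevalonate steps, 11 genes from squalene to cholesterol, 5 genes of sterol transport and 6 genes of fatty acid synthesis. RNA was sequenced from α cells, which secrete glucagon, and β cells, which secrete insulin, sorted by fluorescence from the islets of male mice aged 6 to 8 weeks. All mice, controls included, carried ProGcg-Venus and RIP-Cherry, the reporters used to sort α and β cells, the clock reporter PER2::Luc, and the pair Insulin-rtTA and TET-DTA, which together make diphtheria toxin A in cells with an active insulin promoter once doxycycline is given. The doxycycline group received 300 mg of the drug in water with 2% sucrose to ablate β cells, and the control group received the sucrose water. No group received the drug without the toxin, so what the drug itself does and what the loss of β cells does cannot be told apart, and the β cells of the doxycycline group are those still present when the islets were taken. Both groups were fed at night for 10 days beforehand with the lights on for 12 h and off for 12 h. Some animals had been kept on an inverted cycle for 2 weeks, and the labels do not say which. Whether this differed between the sampling times is not known, which limits the rhythms below. Sampling at 6 zeitgeber times (ZT, hours after lights on), 4 h apart and in duplicate, gives 12 libraries in each of the 4 conditions. The labels do not say that duplicates are separate animals, so the p-values below measure only the spread between these libraries.

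SREBPs are membrane proteins of the endoplasmic reticulum. When sterols are scarce, the escort protein Scap carries them to the Golgi, where they are cut to release transcription factors for sterol and fatty acid genes, and when sterols are plentiful the Insig proteins hold Scap back. Cholesterol is built from acetyl-CoA through mevalonate, squalene and lanosterol, and in β cells it is a component of the membranes of insulin granules. In liver, genes of this pathway are known to vary over the day with feeding.

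The promoters of 4 members are shown because they are among the 5 genes that both changed with doxycycline in β cells and changed there by a different amount than in α cells (results below). Each is the stretch of 250 bases before a RefSeq transcription start in GRCm38.p6, on the gene's own strand, and capitals mark the CCAAT box (CCAAT, or ATTGG on the other strand), the binding sequence of NF-Y, a factor known to act with SREBPs. Of the 3 starts of Srebf1 the innermost is shown, and of the 2 starts of Pmvk the outer one.
Srebf1 (chr11:60210472-60210721, minus strand): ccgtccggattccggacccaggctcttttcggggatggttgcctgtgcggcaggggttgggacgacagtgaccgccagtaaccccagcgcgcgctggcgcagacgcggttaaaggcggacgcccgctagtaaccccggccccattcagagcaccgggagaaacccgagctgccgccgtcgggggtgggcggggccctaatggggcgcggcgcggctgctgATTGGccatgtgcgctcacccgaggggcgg
Msmo1 (chr8:64733579-64733828, minus strand): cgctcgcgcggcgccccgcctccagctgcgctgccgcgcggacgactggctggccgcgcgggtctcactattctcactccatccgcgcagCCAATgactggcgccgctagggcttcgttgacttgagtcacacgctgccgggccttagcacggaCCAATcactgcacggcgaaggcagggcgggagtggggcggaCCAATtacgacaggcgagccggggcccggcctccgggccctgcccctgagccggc
Ebp (chrX:8193513-8193762, minus strand): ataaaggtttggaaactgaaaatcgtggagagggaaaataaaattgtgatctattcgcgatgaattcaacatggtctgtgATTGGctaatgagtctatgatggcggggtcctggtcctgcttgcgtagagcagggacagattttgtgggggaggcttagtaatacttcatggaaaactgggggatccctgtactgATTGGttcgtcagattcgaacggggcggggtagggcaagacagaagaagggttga
Pmvk (chr3:89454291-89454540, plus strand): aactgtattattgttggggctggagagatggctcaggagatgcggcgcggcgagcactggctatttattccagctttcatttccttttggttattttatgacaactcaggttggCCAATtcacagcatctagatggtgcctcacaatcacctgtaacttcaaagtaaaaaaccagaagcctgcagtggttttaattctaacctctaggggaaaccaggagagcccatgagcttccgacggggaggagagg
The windows shown hold 1 CCAAT box in Srebf1, 3 in Msmo1, 2 in Ebp and 1 in Pmvk. The middle start of Srebf1 and the inner start of Pmvk, not shown, had 0 CCAAT boxes in the same window, and the outer start of Srebf1 had 1.

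RefSeq starts were matched for 26 of the 34 members, and the same 250-base window was searched on both strands in 27025 genes. The CCAAT box was present in 20 of the 26 member genes (76.9%) and in 37.5% of all genes. The GC box (GGGCGG), a sequence bound by Sp1, was present in 22 member genes (84.6%) and in 35.4% of all genes. An E-box (CACGTG), which clock factors and SREBPs can bind, was present in 6 members (23.1%), namely Abca1, Dhcr7, Hsd17b7, Insig1, Sc5d and Scap, and in 6.86% of all genes. The core of the sterol regulatory element (TCACNCCAC) was present in 1 member, Hmgcs1, and in 1.22% of all genes. None of the 4 motifs contains another, and a match describes the sequence, not binding.

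Libraries held 16.1 to 69.9 M estimated counts, and they came from 2 sequencing runs. The earlier run held replicate 1 of ZT4 to ZT20 (20 libraries, 16.1 to 28.6 M) and the later run held all others (28 libraries, 37.4 to 69.9 M), so the run is a term in every fit. The summed level of 8 β-cell markers was 240438 to 431859 CPM (counts scaled to library size) in control β cells and 470 to 4237 CPM in control α cells, and that of 7 α-cell markers was 250345 to 396205 CPM in control α cells and 348 to 859 CPM in control β cells. Since these are bulk libraries, fewer cells of a type and less RNA per cell cannot be told apart.

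Per kilobase of transcript, Acly, which makes cytosolic acetyl-CoA from citrate, had the highest level of the 34 genes in all 4 conditions. It stood at 379 ± 93.4 CPM per kb in control β cells and 151 ± 21.9 CPM per kb in control α cells (SD, n = 12 each). In control β cells the next were Scd2, a stearoyl-CoA desaturase, at 74.6 ± 21.2, Insig1 at 57.9 ± 12.5 and Srebf2, the SREBP best known for sterol genes, at 39.2 ± 8.09 CPM per kb. In control α cells the order behind Acly was Srebf2 at 32.8 ± 9.07, Scd2 at 30.4 ± 10.9 and Fasn, the fatty acid synthase, at 21.0 ± 5.44 CPM per kb. Scd1, the paralogue of Scd2, was lowest in control β cells (0.885 ± 0.456 CPM per kb) and Idi1, the isomerase of isoprenoid units, in control α cells (0.731 ± 0.341 CPM per kb). The order is coarse, since 27 to 29 of the 33 pairs of neighbours in it lay within 1 SD of each other.

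**Figure D1:**
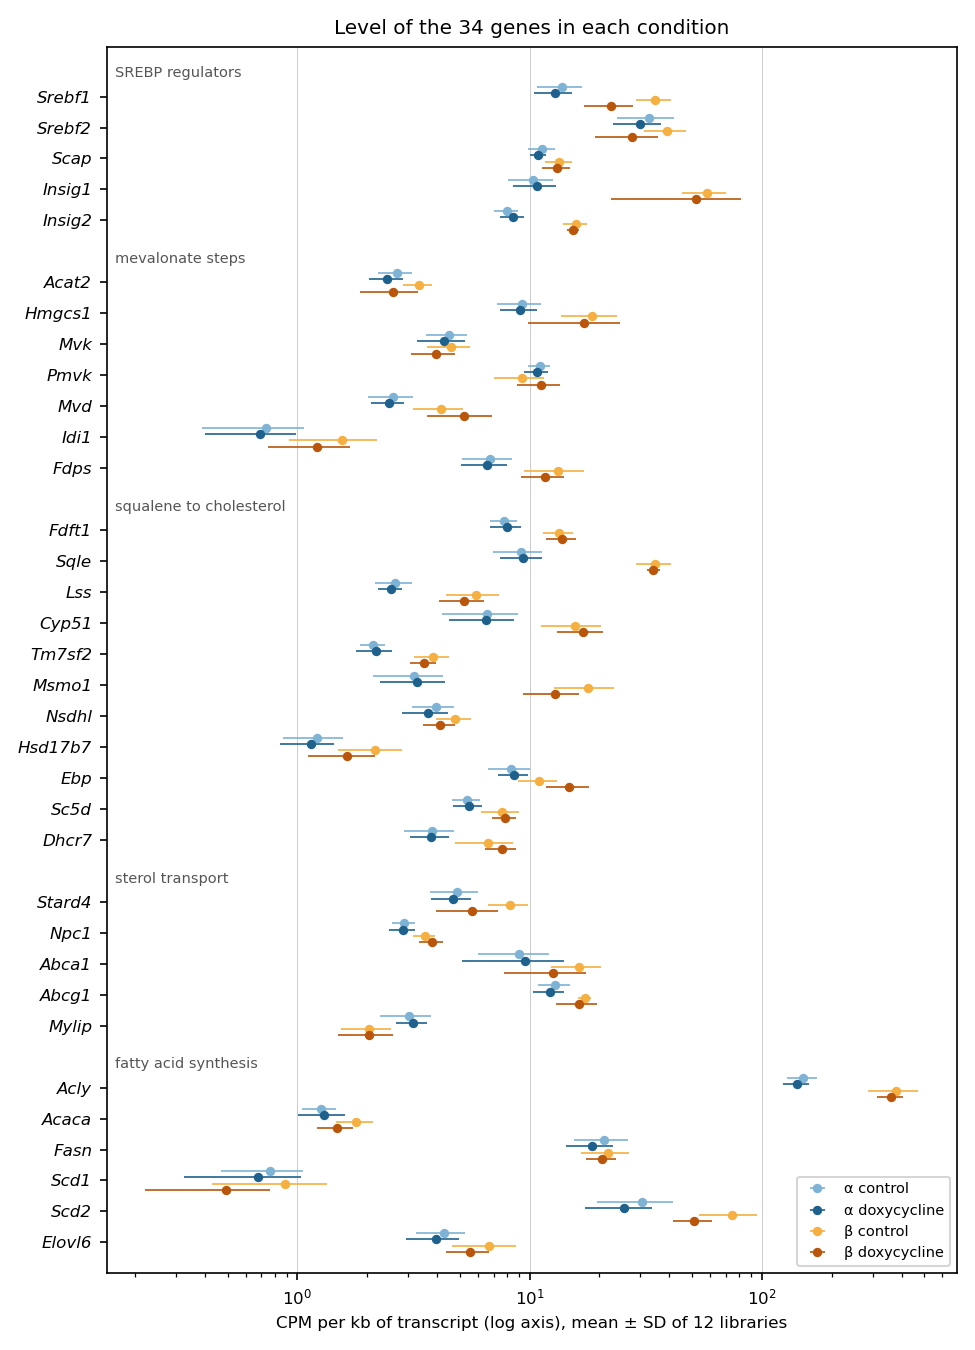
Level of each of the 34 genes in CPM per kb of transcript (log axis) by condition, as mean ± SD of 12 libraries, grouped by role. Acly stands highest in all 4 conditions, and for most genes both β-cell points lie to the right of both α-cell points.

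The first question was how α and β cells of control mice differ. Of the 34 genes, 29 were higher in β cells and 2 lower, with a median log2 fold change of 0.75 against -0.03 over all 14945 genes tested (edgeR). Background was high here, since 71.4% of all genes were called, 34.2% as higher in β cells and 37.3% as lower. All 11 genes from squalene to cholesterol and all 5 regulators were higher, as were 5 of 7 mevalonate genes, 4 of 5 transport genes and 4 of 6 fatty acid genes. The members that were not called were Mvk, mevalonate kinase (log2 fold change -0.01), Fasn (0.04) and Scd1 (0.09). Markers of other cells differed too: of 12 macrophage markers 9 were higher and 1 lower in control β cells (50.7 to 349 CPM in sum, against 43.1 to 146 CPM in α cells), and of 10 cell cycle genes 8 were higher. Markers of δ and PP cells summed to a median of 557 CPM in β and 20250 CPM in α cells, and 8 of the 9 acinar markers tested were lower in β cells (medians of 42.3 and 205 CPM in sum). Their part in the differences of the 34 genes was not tested.

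Among the regulators, Insig1 and Srebf1 differed most. Insig1 had a lowest, median and highest level of 20.3, 32.0 and 42.1 CPM in control α cells and 119, 182 and 250 CPM in control β cells, so the ranges did not overlap. Its log2 fold change was 2.47 ± 0.12 (SE, n = 12 per group, edgeR adjusted p = 7.3e-14). Srebf1, the SREBP gene best known for fatty acid synthesis, ran at 48.7, 75.8 and 106 CPM in α cells and 144, 195 and 245 CPM in β cells, again without overlap (1.32 ± 0.06, edgeR adjusted p = 1.4e-14). Insig2, the second Insig gene, was higher in all 12 β-cell libraries (21.3 to 32.0 CPM in α cells, 47.8 to 68.8 CPM in β cells, log2 fold change 0.97 ± 0.07, edgeR adjusted p = 1.4e-11). Smaller differences with overlapping ranges were found for Scap (67.6 to 102 CPM in α cells, 81.2 to 124 CPM in β cells, 0.22 ± 0.05, edgeR adjusted p = 0.00018). The same held for Srebf2 (119 to 261 CPM in α cells, 121 to 254 CPM in β cells, 0.24 ± 0.09, edgeR adjusted p = 0.0195), whose call was made in the earlier run alone (adjusted p = 0.019) and not in the later (adjusted p = 0.16).

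Of the enzymes, Msmo1, the sterol methyl oxidase, had a lowest, median and highest level of 11.9, 17.0 and 30.6 CPM in α cells and 66.8, 97.1 and 187 CPM in β cells (log2 fold change 2.49 ± 0.14, edgeR adjusted p = 8.0e-13). Sqle, the squalene epoxidase, stood at 37.8, 45.9 and 75.1 CPM in α cells and 134, 183 and 254 CPM in β cells (1.91 ± 0.10, edgeR adjusted p = 1.6e-13). Acly stood at 635, 793 and 974 CPM in α cells and 1101, 1916 and 2931 CPM in β cells (1.28 ± 0.07, edgeR adjusted p = 4.4e-13). For each of these enzymes every β-cell library lay above every α-cell library. Ranges did not overlap for 9 of the 34 genes, against 23.1% of all genes, which is a share near the background.

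Only Pmvk and Mylip were called lower in control β cells. Pmvk, the phosphomevalonate kinase, ran from 15.2 to 21.9 CPM in α cells (median 19.2) and from 11.5 to 22.5 CPM in β cells (median 15), with a log2 fold change of -0.30 ± 0.07 (edgeR adjusted p = 0.00044). Mylip, a ubiquitin ligase that directs lipoprotein receptors to degradation, ran from 7.02 to 15.7 CPM (median 9.12) and from 3.19 to 8.37 CPM (median 7.08), with -0.59 ± 0.13 (edgeR adjusted p = 0.00040). Both ranges overlapped, with Mylip lower in β cells at all 6 times and Pmvk at 5 of 6. Within the runs the median fold change of the 34 genes was 0.74 in the earlier and 0.72 in the later, with 27 called higher in each. Over all genes 4241 of 14148 were called higher in the earlier and 4847 of 15321 in the later run. The call of Nsdhl, a sterol dehydrogenase (0.27 ± 0.11, edgeR adjusted p = 0.029), was lost in each run alone and in 6 of the 24 fits that left out a single library (adjusted p up to 0.066).

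In doxycycline mice, 25 of the 34 genes were higher in β than in α cells and 1 was lower, with a median of 0.62 against -0.01 over all genes (71.2% of 15370 genes called, 35.6% higher and 35.7% lower). In the earlier run alone 19 were higher and 1 lower, and in the later run alone 21 and 2. Over all genes 4403 of 14509 were called higher in the earlier and 4857 of 15489 in the later run. Ranges did not overlap for 8 of the 34 genes, against 20.6% of all genes. Sqle stood at 34.4, 50.7 and 72.5 CPM in α cells and 173, 189 and 213 CPM in β cells (lowest, median and highest), a log2 fold change of 1.90 ± 0.09 (edgeR adjusted p = 5.2e-14). Acly (1.36 ± 0.07), Insig2 (0.88 ± 0.06) and the lanosterol synthase gene Lss (1.04 ± 0.07) were also higher without overlap (edgeR adjusted p of 3.85e-11 for Lss and lower for the others). So was Dhcr7, whose enzyme catalyses a last step of cholesterol synthesis (16.5 to 28.2 CPM in α cells, 33.6 to 53.2 CPM in β cells, 1.02 ± 0.10, edgeR adjusted p = 6.1e-09).

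Of the other regulators in doxycycline mice, Insig1 ran from 20.7 to 47.7 CPM in α cells and from 51.7 to 378 CPM in β cells, again without overlap (log2 fold change 2.12 ± 0.22, edgeR adjusted p = 3.3e-08). Srebf1 ran from 53.9 to 96.1 CPM and from 87.2 to 190 CPM, where the ranges met (0.81 ± 0.09, edgeR adjusted p = 1.1e-07). Scap was also higher (71.8 to 92.4 CPM and 80.2 to 123 CPM, 0.28 ± 0.05, edgeR adjusted p = 7.4e-05). Srebf2 was not called (116 to 213 CPM and 66.2 to 196 CPM, log2 fold change -0.13 ± 0.15, edgeR adjusted p = 0.45). Mylip was again lower (-0.61 ± 0.12, edgeR adjusted p = 0.00010). Acat2, Mvk, Pmvk, Nsdhl, Stard4, Acaca and Scd1 were the other members not called. Acaca, the acetyl-CoA carboxylase gene, lay at the threshold (0.21 ± 0.09, edgeR adjusted p = 0.0501) and passed it with the replicate number as a block (0.21, adjusted p = 0.047), where 26 genes were higher. The calls of Fasn (0.17, adjusted p = 0.047) and of the sterol exporter Abca1 (0.41, adjusted p = 0.049) were lost in 18 and 17 of the 24 fits that left out a library (adjusted p up to 0.19 and 0.14).

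**Figure D2:**
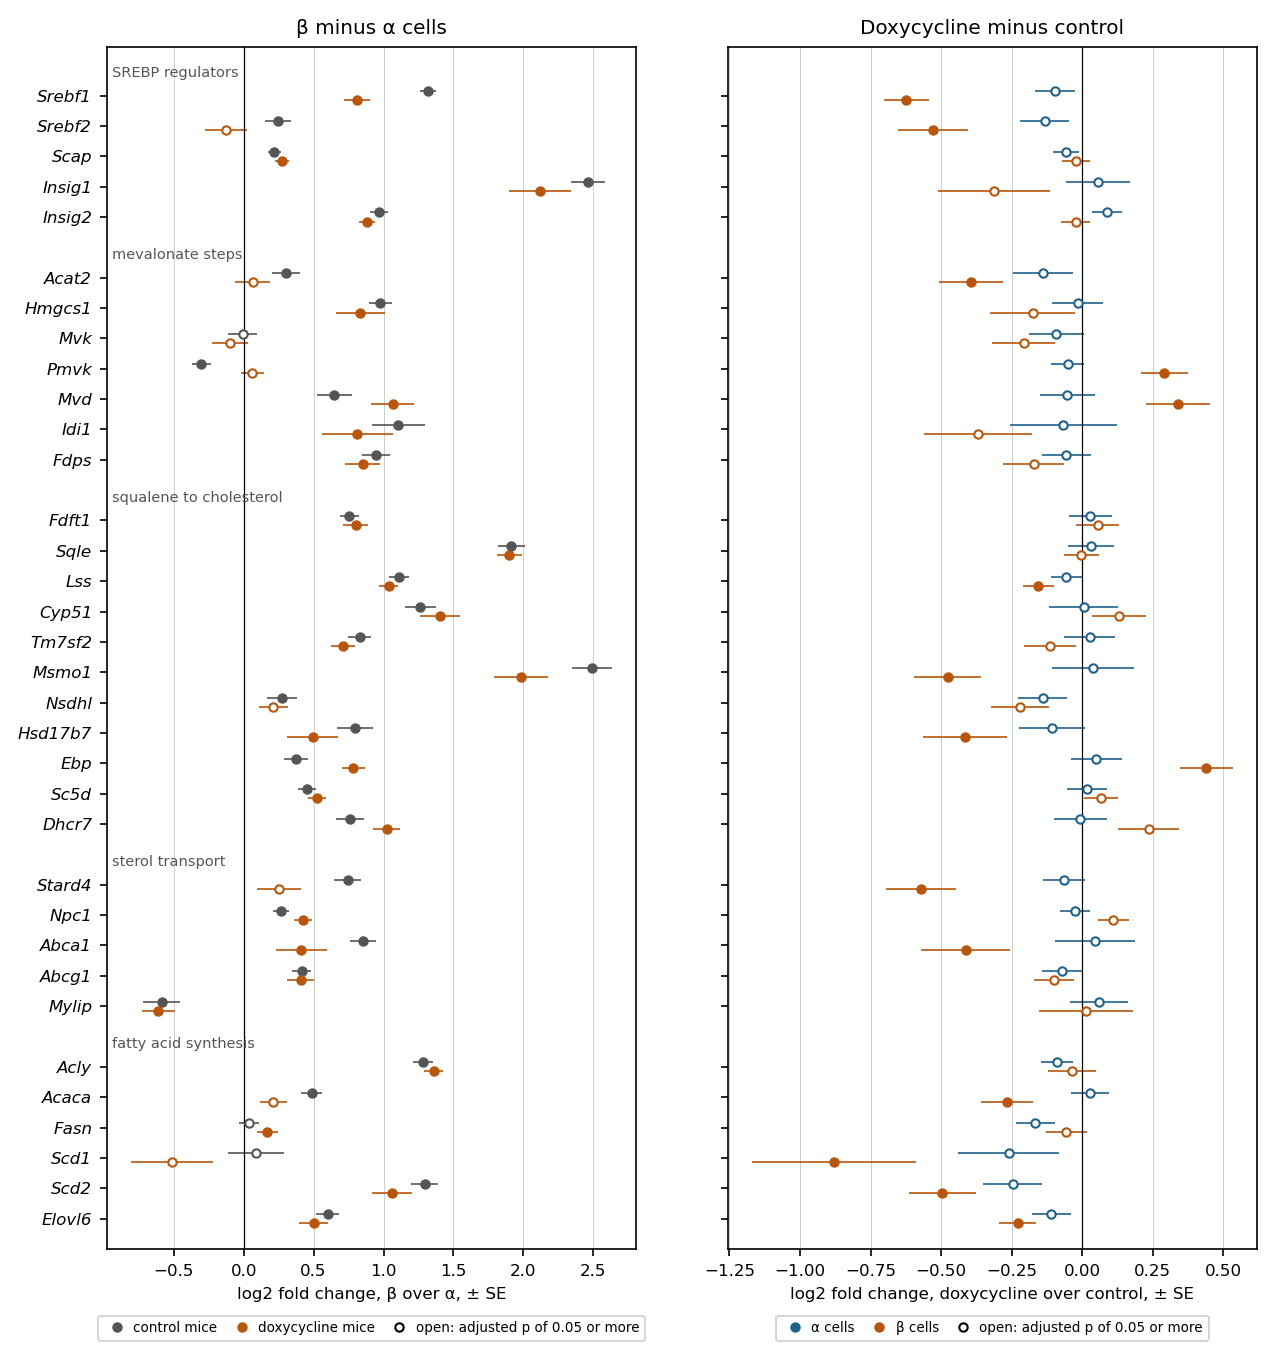
Log2 fold change ± SE of each gene between cell types (left, in control and in doxycycline mice) and between treatments (right, in α and in β cells). Filled points passed an adjusted p of 0.05, and the left panel lies mostly to the right of 0 and the right panel has filled points in β cells alone.

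The next question was what doxycycline changed in β cells. Of the 34 genes 12 were lower and 3 higher in doxycycline β cells, with a median log2 fold change of -0.16 against -0.01 over 15188 genes, of which 46.9% were called (23.1% lower, 23.8% higher). Of the 5 regulators 2 fell, as did 4 of the 6 fatty acid genes and 2 of the 5 transport genes. Of the 7 mevalonate genes 1 fell and 2 rose, and of the 11 genes from squalene to cholesterol 3 fell and 1 rose. Ranges overlapped between control and doxycycline for all 34 genes, while 2.48% of all genes had separate ranges.

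Both SREBP genes fell. Srebf1 stood at 144, 195 and 245 CPM in control and 87.2, 125 and 190 CPM in doxycycline β cells (lowest, median and highest), and 9 of the 12 doxycycline libraries lay below every control library. Its log2 fold change was -0.62 ± 0.08 (edgeR adjusted p = 2.9e-06), with -0.63 in the earlier and -0.61 in the later run, and its mean was lower at all 6 times. Srebf2 went from 121, 190 and 254 CPM to 66.2, 144 and 196 CPM (-0.53 ± 0.12, edgeR adjusted p = 0.0015, -0.66 and -0.43 in the runs), also lower at all 6 times. The escort and anchor genes were not called: Scap had -0.02 ± 0.05 (81.2 to 124 CPM in control, 80.2 to 123 CPM in doxycycline), Insig2 had -0.02 ± 0.05 (47.8 to 68.8 and 47.5 to 57.4 CPM) and Insig1 had -0.31 ± 0.20 (119 to 250 and 51.7 to 378 CPM), with edgeR adjusted p-values of 0.75, 0.74 and 0.21. For Insig1 the range in doxycycline β cells enclosed that in control β cells.

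Among the targets, Stard4, which carries cholesterol between membranes, fell from 34.6, 44.5 and 61.0 CPM to 17.4, 31.7 and 44.1 CPM, with 8 of 12 doxycycline libraries below the control range (-0.57 ± 0.12, edgeR adjusted p = 0.00081, -0.58 and -0.55 in the runs). Scd2 fell from 241, 405 and 614 CPM to 207, 277 and 376 CPM (-0.50 ± 0.12, edgeR adjusted p = 0.0018, -0.47 and -0.50 in the runs). Msmo1 fell from 66.8, 97.1 and 187 CPM to 43.8, 77.0 and 117 CPM (-0.48 ± 0.12, edgeR adjusted p = 0.0027, -0.53 and -0.41 in the runs). Scd2 and Msmo1 were each lower at 5 of the 6 times, and their ranges overlapped more than that of Stard4, with 3 and 4 doxycycline libraries below the control range.

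The other genes that fell were Acat2, Lss, Hsd17b7, Abca1, Acaca, Scd1 and Elovl6, with log2 fold changes from -0.88 to -0.16. Scd1 fell most (-0.88 ± 0.29, edgeR adjusted p = 0.017), but it did so in the later run alone (-1.50, adjusted p = 0.0099), with 0.04 in the earlier run (adjusted p = 0.94). Its levels were low, from 1.49 to 7.57 CPM in control and from 0.911 to 4.52 CPM in doxycycline β cells. The calls of Abca1 (-0.41), Hsd17b7 (-0.41), Lss (-0.16) and Acaca (-0.27) were lost in 10, 5, 5 and 4 of the 24 fits that left out a library (adjusted p up to 0.074, 0.072, 0.057 and 0.065).

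The 3 genes that rose are enzymes of sterol synthesis. Ebp, the sterol isomerase, went from 17.8, 25 and 35.6 CPM to 23.7, 35.2 and 48.3 CPM, was higher at all 6 times, and had 5 doxycycline libraries above the control range (0.44 ± 0.09, edgeR adjusted p = 0.00070, 0.48 and 0.43 in the runs). Pmvk went from 11.5, 15 and 22.5 CPM to 15.5, 18 and 27.5 CPM (0.29 ± 0.08, edgeR adjusted p = 0.0061, 0.40 and 0.23 in the runs). Mvd, the mevalonate diphosphate decarboxylase, went from 4.30, 7.63 and 11.1 CPM to 4.45, 9.49 and 15.5 CPM (0.34 ± 0.11, edgeR adjusted p = 0.018, 0.31 and 0.36 in the runs). Pmvk and Mvd were higher at 5 of 6 times. Sqle, the enzyme that stood out between cell types, was not called (134 to 254 CPM in control, 173 to 213 CPM in doxycycline, -0.0024 ± 0.062, edgeR adjusted p = 0.98).

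In each run alone fewer members passed the test in β cells, 7 lower and 2 higher in the earlier and 4 lower and 1 higher in the later. Calls over all genes fell as well, to 4638 of 14313 in the earlier and 3747 of 15282 in the later run, from 7122 of 15188. Of the 34 genes 19 had a negative and 8 a positive fold change in both runs. Other cell markers moved with the treatment. All 12 macrophage markers were higher in doxycycline β cells, with a summed level of 117 to 1536 CPM (median 644) against 50.7 to 349 CPM (median 163), and none was at 0. All 10 cell cycle genes were higher (160 to 369 CPM against 59.5 to 131 CPM in sum), and the 7 α-cell markers summed to 1423 to 3778 CPM against 348 to 859 CPM. Acinar markers summed to a median of 11.3 CPM with a highest library at 4684 CPM, against 42.3 and 247 CPM in control, and endothelial and stromal markers reached 294 CPM against 43.5 CPM. The δ and PP markers had medians of 933 and 557 CPM. The part of these markers in the changes of the 34 genes was not tested.

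**Figure D3:**
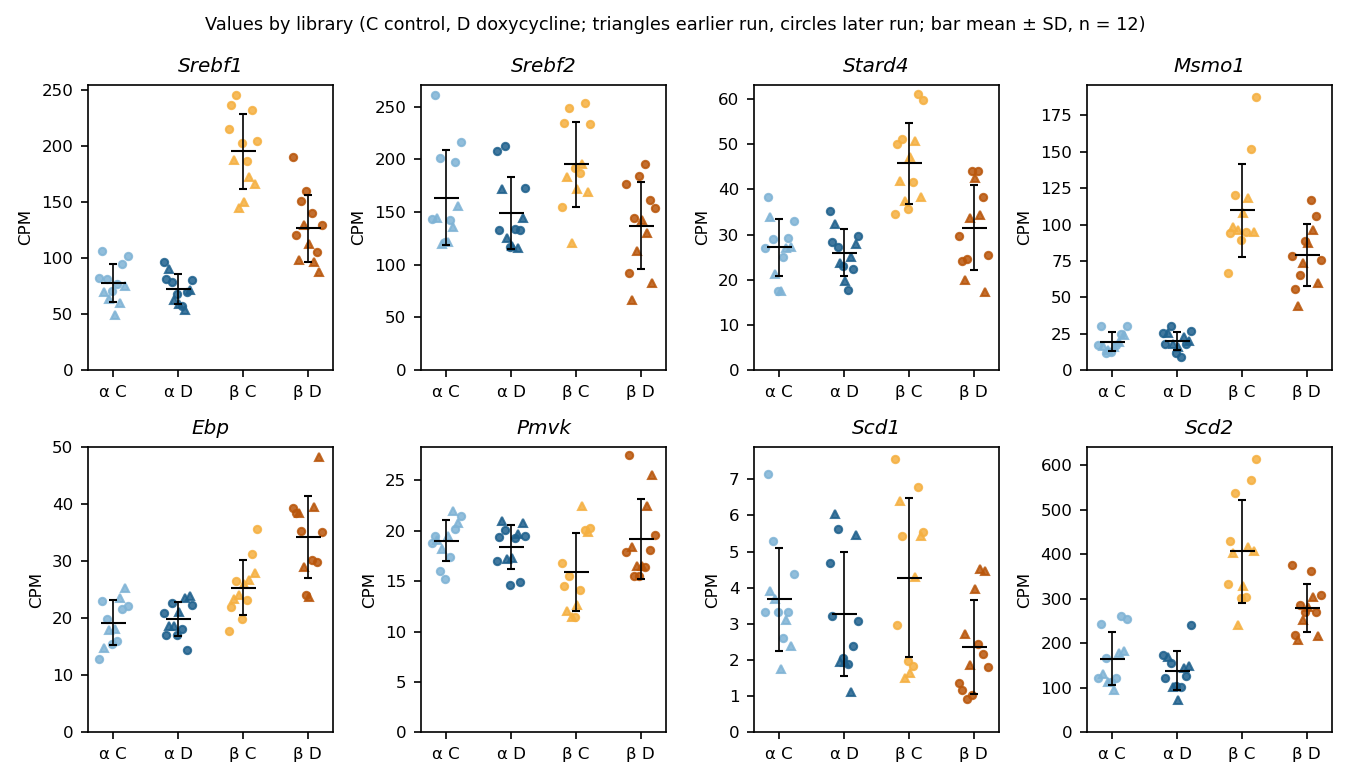
CPM of 8 members in each library of the 4 conditions, from left to right in order of ZT within a condition, with mean ± SD of 12 libraries. In β cells Srebf1, Srebf2, Stard4, Msmo1 and Scd2 lie lower with doxycycline and Ebp and Pmvk higher, with overlap in each, and Scd1 is scattered in every condition.

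In α cells none of the 34 genes was called for doxycycline by edgeR, against 0.127% of 14932 genes (19 genes, 0.0804% higher and 0.0469% lower). DESeq2 called none of the 34 either, against 125 of 14932 genes. With so few genes called, 0 of 34 is near the background. At an unadjusted p under 0.05 there were 2 members, Fasn (-0.17 ± 0.07) and Scd2 (-0.25 ± 0.10), against 7.86% of all genes. The regulators had log2 fold changes of -0.10 ± 0.07 (Srebf1), -0.13 ± 0.09 (Srebf2), -0.06 ± 0.05 (Scap), 0.06 ± 0.11 (Insig1) and 0.09 ± 0.05 (Insig2), with edgeR adjusted p-values from 0.78 to 0.97. Srebf1 illustrates the overlap, at 48.7, 75.8 and 106 CPM in control and 53.9, 70.6 and 96.1 CPM in doxycycline α cells. The macrophage markers summed to 62.7 to 116 CPM in doxycycline α cells against 43.1 to 146 CPM in control. Acinar markers reached 6763 CPM in doxycycline α cells against 893 CPM in control (medians of 107 and 205 CPM), and δ and PP markers had medians of 29101 and 20250 CPM.

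The doxycycline effect differed between β and α cells for 5 of the 34 genes, against 25.5% of 16207 genes (12.8% with a lower effect in β cells and 12.7% with a higher). The difference, β minus α, was -0.54 ± 0.11 for Srebf1 (edgeR adjusted p = 0.00045), -0.52 ± 0.15 for Stard4 (adjusted p = 0.011) and -0.53 ± 0.20 for Msmo1 (adjusted p = 0.048). It was 0.33 ± 0.10 for Pmvk (edgeR adjusted p = 0.015) and 0.38 ± 0.14 for Ebp (adjusted p = 0.039). The other regulators were not called, at -0.41 ± 0.16 for Srebf2 (edgeR adjusted p = 0.058), 0.02 ± 0.07 for Scap (0.86), -0.38 ± 0.24 for Insig1 (0.26) and -0.13 ± 0.07 for Insig2 (0.22). In the earlier run alone 3 genes were called lower and 1 higher (2139 of 15247 genes in all), and in the later run alone 0 (1243 of 16392). The call of Msmo1 was lost in 30 of the 48 fits that left out a library and that of Ebp in 18 (adjusted p up to 0.085 and 0.074). With the replicate number as a block both calls were lost (adjusted p = 0.087 and 0.060), which left 2 genes lower and 1 higher (3807 of 16207 genes in all).

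The last comparisons asked whether the genes vary over the day in each condition, from a 24 h cosine fitted to 12 libraries. In control β cells 4 of the 34 genes had a rhythm, against 2.17% of 13302 genes (12 against 20.6% at an unadjusted p under 0.05), and their fitted peaks fell between ZT16.8 and ZT18.9, in the dark. Elovl6, a fatty acid elongase, was lowest at ZT4 (mean 28.1 CPM) and highest at ZT16 (63.7 CPM), where the 2 libraries stood at 59.9 and 67.5 CPM, above all others. Its amplitude from mean to peak was 0.57 ± 0.08 log2 units with a peak at ZT16.8 ± 0.54 h (SE, n = 12, edgeR adjusted p = 0.018). Lss went from 47.5 CPM at ZT8 to 87.5 CPM at ZT16 (0.44 ± 0.07, peak ZT17.6, adjusted p = 0.020), Pmvk from 11.5 to 21.3 CPM at the same times (0.42 ± 0.07, peak ZT18.9, adjusted p = 0.034) and Hmgcs1, the synthase that opens the mevalonate steps, from 61.8 to 111 CPM (0.43 ± 0.08, peak ZT17.5, adjusted p = 0.039). Within the runs, of 5 and 7 libraries, the peaks of these 4 genes lay at most 0.81 h apart. A call from both runs together favours genes whose runs agree. Peaks by run are therefore no separate evidence of a rhythm, here or in the conditions below. The regulators had amplitudes from 0.07 to 0.15 in control β cells, and none was called (edgeR adjusted p of at least 0.34).

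In doxycycline β cells 14 of the 34 genes had a rhythm, against 11.6% of 13613 genes (21 against 31.8% at an unadjusted p under 0.05). Hmgcs1 stood at 59.8, 54.8, 84.3, 115, 108 and 53.4 CPM at ZT0, 4, 8, 12, 16 and 20 (means of 2 libraries), an amplitude of 0.72 ± 0.09 with a peak at ZT12.6 ± 0.46 h (edgeR adjusted p = 0.0062). Msmo1 peaked at ZT13.5 (0.49 ± 0.07, adjusted p = 0.0092), Hsd17b7, a reductase of the sterol steps, at ZT11.9 (0.62 ± 0.09, adjusted p = 0.010) and Lss at ZT17.1 (0.39 ± 0.06, adjusted p = 0.011). Msmo1 and Hsd17b7, like Hmgcs1, had their highest mean at ZT12, and Lss had its highest at ZT16 as in control.

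Of the regulators, Insig1 was called in doxycycline β cells. Its means were 123, 94.0, 220, 281, 162 and 85.7 CPM at the 6 times, against 139, 201, 180, 191, 175 and 190 CPM in control β cells. Single libraries stood at 51.7 and 136 CPM at ZT4, 56.0 and 115 CPM at ZT20 and 73.1 and 174 CPM at ZT0, against 203 and 236 CPM at ZT8, 184 and 378 CPM at ZT12 and 117 and 207 CPM at ZT16. At each of the 5 times with a library from either run, the later one was higher. The amplitude was 0.93 ± 0.16 with a peak at ZT11.2 ± 0.63 h (edgeR adjusted p = 0.017), with peaks at ZT11.4 in the earlier and ZT11.5 in the later run. Srebf2 (0.38 ± 0.10, adjusted p = 0.072), Srebf1 (0.20 ± 0.08, 0.23), Scap (0.13 ± 0.06, 0.24) and Insig2 (0.07 ± 0.04, 0.50) were not called by edgeR.

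The remaining called genes in doxycycline β cells were Acat2, Idi1, Fdft1, Cyp51, Ebp, Stard4, Abcg1, Scd1 and Elovl6. Ebp, which rose with doxycycline, peaked at ZT22.3, and the sterol exporter Abcg1 at ZT0.24, apart from the 12 other called genes, which peaked between ZT10.2 and ZT17.1. The count of 14, out of 1576 genes called in all, was 3 without the run term (328 genes in all), 7 with the replicate block (688) and 4 in the earlier run alone (146), which was added after the data were seen. In the later run alone no gene was called. Peaks fitted in the 2 runs lay at most 2.19 h apart for these 14 genes, which were called from both runs together.

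**Figure D4:**
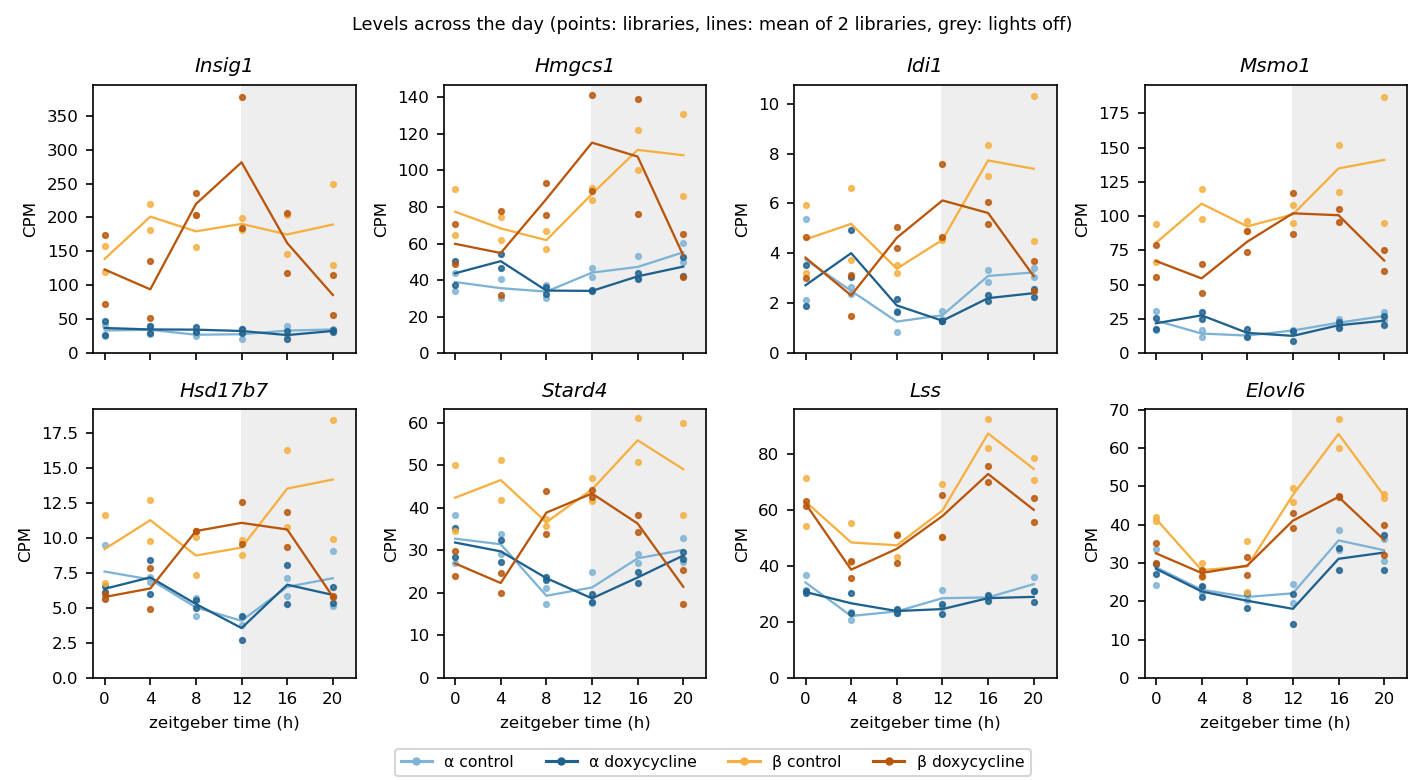
CPM of 8 members over zeitgeber time (h) in the 4 conditions, with points for libraries and lines for the mean of 2 libraries. In doxycycline β cells Insig1, Hmgcs1 and Hsd17b7 are highest at ZT12, while Lss and Elovl6 are highest at ZT16 in both treatments.

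In control α cells 5 genes had a rhythm, against 4.49% of 13349 genes (20 against 21.6% at an unadjusted p under 0.05). Elovl6 had its highest mean at ZT16 (35.9 CPM) and its lowest at ZT8 (21.1 CPM), with an amplitude of 0.39 ± 0.07 and a peak at ZT19.1 (edgeR adjusted p = 0.016). Cyp51, the lanosterol demethylase, went from 17.9 CPM at ZT8 to 45.0 CPM at ZT20 (0.57 ± 0.10, peak ZT19.9, adjusted p = 0.017) and Msmo1 from 12.9 to 27.1 CPM at the same times (0.55 ± 0.10, peak ZT19.8, adjusted p = 0.021). Abca1, whose product exports cholesterol, ran nearly opposite, from 63.5 CPM at ZT20 to 144 CPM at ZT12 (0.54 ± 0.10, peak ZT10.1, adjusted p = 0.025), and Sqle was the fifth (adjusted p = 0.040). The regulators were not called, with amplitudes of 0.31 ± 0.09 for Srebf2 (edgeR adjusted p = 0.12), 0.23 ± 0.06 for Srebf1 (0.083) and 0.04 to 0.15 for the others.

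In doxycycline α cells 3 genes had a rhythm, against 2.82% of 13280 genes (19 against 19.9% at an unadjusted p under 0.05). Stard4 went from 18.7 CPM at ZT12 to 31.8 CPM at ZT0 (0.38 ± 0.06, peak ZT24.0, edgeR adjusted p = 0.016). Srebf1 went from 57.9 to 88.8 CPM at the same times (0.31 ± 0.06, peak ZT0.72, adjusted p = 0.031) and Nsdhl peaked at ZT2.55 (0.37 ± 0.07, adjusted p = 0.040). The other regulators had amplitudes from 0.03 to 0.30 and were not called (edgeR adjusted p of at least 0.14). Peaks fitted in the 2 runs lay up to 2.68 h apart for the called genes of control α cells. They lay up to 2.11 h apart for those of doxycycline α cells, again genes called from both runs together.

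The number of rhythms called moved with the tool. DESeq2 called 9 of the 34 genes in control β cells (1317 genes in all), 15 in control α cells (1518), 17 in doxycycline β cells (3014) and 13 in doxycycline α cells (1178). With the replicate number in place of the run 8 were called in control α cells (605 genes in all). The number also moved with single libraries. In control β cells it was 0 without either library of ZT16 and 6 without replicate 2 of ZT20. In control α cells it was 0 without replicate 2 of ZT20 and 16 without replicate 1 of ZT0. In doxycycline β cells it was 7 without replicate 1 of ZT20 and 17 without replicate 1 of ZT0, and in doxycycline α cells it ran from 0, without replicate 2 of ZT8 or ZT12 or replicate 1 of ZT20, to 9 without replicate 2 of ZT0. Counts over all genes without single libraries are not given here, so these shifts cannot be read as particular to the 34 genes. With time as 6 levels no member was called in any condition, and 0 to 73 of all genes were. The median amplitude of the 34 genes, called or not, was 0.21 in control β, 0.23 in control α, 0.31 in doxycycline β and 0.25 in doxycycline α cells, beside 0.16, 0.14, 0.20 and 0.16 over all genes.

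Over the 18 genes of the mevalonate and squalene to cholesterol steps, called or not, the circular mean of the fitted peaks was ZT17.8 in control β cells, ZT14.2 in doxycycline β cells, ZT21.1 in control α cells and ZT0.25 in doxycycline α cells. No difference of rhythm passed the test, for the members or for any gene (edgeR). At an unadjusted p under 0.05, 9 of the 34 members differed between doxycycline and control β cells, against 4.66% of 15188 genes. The 3 with the lowest p were Hsd17b7 (amplitude of the difference 0.71 ± 0.16, unadjusted p = 0.0014, edgeR adjusted p = 0.93), Stard4 (0.52 ± 0.13, unadjusted p = 0.0037, adjusted p = 0.96) and Hmgcs1 (0.61 ± 0.16, unadjusted p = 0.0046, edgeR adjusted p = 0.999). Between doxycycline and control α cells 3 members had an unadjusted p under 0.05 (Hmgcs1, Acly and Msmo1), against 2.52% of genes. Between β and α cells of control mice there were 5, led by Abcg1, Mvd and Elovl6, against 6.33% of genes. DESeq2 called 3, 0 and 104 of all genes in these 3 comparisons, and 0 members in each.

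**Figure D5:**
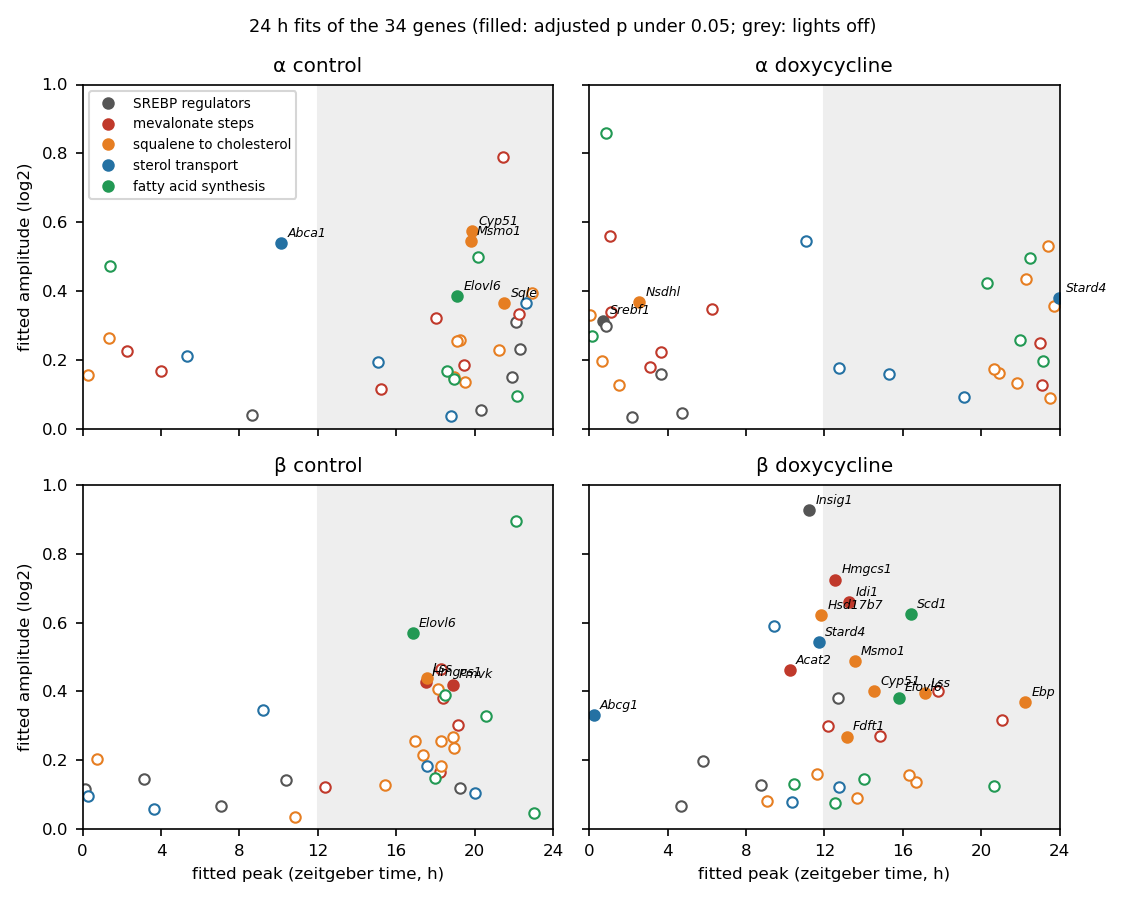
Fitted amplitude (log2, mean to peak) against fitted peak time (h after lights on) of the 34 genes in each condition, coloured by role, with filled and named points for genes with an adjusted p under 0.05. Called genes of β cells gather near ZT17 to ZT19 in control and mostly between ZT10 and ZT17 with doxycycline.

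A list of 26 other genes of lipid synthesis and its control, none among the 34, was read beside them. In control mice 16 were higher and 4 lower in β cells, against 34.2% and 37.3% of all genes. Those higher were led by the fatty acid elongase Elovl5 (2.21 ± 0.07), the oxysterol receptor Nr1h3 (4.10 ± 0.13) and the glucose-responsive factor Mlxipl (4.80 ± 0.16). Those lower were led by the lysosomal sterol carrier Npc2 (-1.25 ± 0.08), the malic enzyme Me1 (-0.84 ± 0.07) and Acacb (-2.38 ± 0.32). With doxycycline 11 fell and 3 rose in β cells, with a median of -0.15 (edgeR), against 23.1% and 23.8% of all genes. Those with the lowest p were Agpat2 (-0.41 ± 0.07), Pcyt2 (-0.49 ± 0.08) and Mlxipl (-0.69 ± 0.13) among the genes that fell, and Elovl1 (0.40 ± 0.06), Me1 (0.26 ± 0.08) and Acacb (1.43 ± 0.45) were the genes that rose. In α cells 0 of the 26 were called, by edgeR, against 0.127% of all genes. At an unadjusted p under 0.05 there were 2, against 7.86% of all genes.

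Some members share exon bases with other genes, and the library kit does not mark strand, so their counts may hold reads of a neighbour. The share of exon bases was 26.7% for Fdps, 18.3% for Fdft1 (with Ctsb on the other strand), 13.2% for Scap, 12.1% for Hmgcs1 and for Tm7sf2, and 9.22% for Idi1. Values of these genes are less certain than those of Insig1, Msmo1, Ebp, Pmvk and Stard4, which share 0 bases. Srebf2 also shares 0 bases, but it was counted over 4989 bases against 7184 exon bases in the annotation used to find shared bases. Abcg1 (4066 against 7298 bases) and Tm7sf2 (3484 against 4403) differ in the same way, and Npc1 by less (10725 against 11317). The levels per kb of these genes and of Srebf2 are less certain for that reason. The bounds of Srebf2, Npc1, Abcg1, Scd1 and Scd2 differ from that annotation.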

How the data were processed

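The deposited values are estimated counts per gene, 1 table per sequencing run, with no scaling for depth. Per the submitters' processing notes, reads were handled with bcl2fastq and STAR on GRCm38, and the counting program is not given in the sources used here. Per the labels' protocols, 300 ng of polyA RNA went into each library. Of the whole values up to 20, 99.7 to 100% per library were even, the pattern of fragments counted as 2 each, in which case depths and the minimum count stand for fewer fragments than printed, and fold changes stay as they are. The deposited RPKM tables were not used here.

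Estimated counts were rounded, and genes were kept with filterByExpr of edgeR 4.0.16 (minimum count 10, minimum total 15, R 4.3.3), scaled by TMM and tested with edgeR's quasi-likelihood F test. P-values were adjusted by Benjamini-Hochberg across every gene tested, with a threshold of 0.05. CPM are TMM-scaled. Time (6 levels) and run were terms, and the difference of the doxycycline effect was fitted over all 48 libraries with these terms for each cell type. Rhythms were a cosine and a sine of 24 h plus run, tested together. DESeq2 1.42.0, other scalings, no filter, single runs, no run term, a replicate block, time as 6 levels and leaving out each library were alternatives. For levels the block was each time and replicate number. For the difference it was fitted within each cell type, so it did not pair α with β libraries. In the rhythm fits the replicate number took the place of the run. Fits of some of the comparisons were also run on simulated counts. These had a fixed spread and no run effect or shared deviation, a simpler setting than these data.

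Same-numbered α and β libraries of doxycycline mice deviated together at all 6 times (r across genes 0.18 to 0.48). At every time but ZT0 (r = 0.42) the replicate number also marked the sequencing run. A shared run could then make same-numbered libraries deviate together. Whether the numbers pair them is therefore not settled. The members and lists were chosen with earlier results of these data known. By rule the text gives the 5 regulators in each comparison, up to 5 called members with the lowest p in each direction (up to 4 for a rhythm, or the 3 lowest p where none was called) and up to 3 other lipid genes in each direction. Other members are given by count, or were named after their values were seen.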

Additional observations from a re-analysis of the deposited data

Results flagged for a closer look

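The doxycycline effect differed between β and α cells, by the test of the difference itself (edgeR adjusted p under 0.05 over all genes), for 5 of the 34 genes, against 25.5% of all genes. On the log2 scale, β minus α, the difference was -0.54 for Srebf1, -0.52 for Stard4, -0.53 for Msmo1, 0.33 for Pmvk and 0.38 for Ebp. In the earlier run alone these were -0.70 for Srebf1, -0.60 for Stard4, -0.72 for Msmo1, 0.46 for Pmvk and 0.37 for Ebp. In the later run alone the values were -0.41, -0.44, -0.34, 0.26 and 0.40 in the same order, with 0 called. With the replicate number as a block the calls of Msmo1 and Ebp were lost (edgeR adjusted p = 0.087 and 0.060). That block joined same-numbered control and doxycycline libraries within a cell type, and did not pair α with β libraries.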

How the results depend on the processing

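In the later run alone, the genes called numbered 2 lower in doxycycline β against α cells, 1 higher and 4 lower for doxycycline in β cells, 0 in either direction for the difference between cell types and 0 in each of the 4 rhythms. Over all genes it called 9758 of 15489 for doxycycline β against α cells and 3747 of 15282 for doxycycline in β cells. It called 1243 of 16392 for the difference, and 0 in each rhythm other than 1 in control α cells. The earlier run alone gave 1 lower for control β against α cells, 7 lower for doxycycline in β cells, 1 higher for the difference between cell types, and rhythm counts of 1 in control β, 0 in control α, 4 in doxycycline β and 0 in doxycycline α cells. Over all genes that run called 8204 of 14148 for control β against α cells and 4638 of 14313 for doxycycline in β cells. It called 2139 of 15247 for the difference, and 341, 26, 146 and 62 in the rhythms in the same order. That run alone was added for the rhythms after the data were seen. Of single genes, Scd1 in β cells reversed there (0.0351, adjusted p = 0.94). The cause was not tested.

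DESeq2 called rhythms of 9 members in control β, 15 in control α and 13 in doxycycline α cells (17 in doxycycline β), out of 1317, 1518, 1178 and 3014 genes called in all. Without TMM the rhythm counts were 2 in control β (91 genes in all) and 5 in doxycycline α cells (307), and without the run term 3 in doxycycline β cells (328). With time as 6 levels they were 0 in all 4 conditions. No filter on low counts left 1 member higher for the difference between cell types, against 1699 of 26400 genes.

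With the replicate block, 1 gene was higher and 2 were lower for the difference between cell types, where 3807 of 16207 genes were called in all. Msmo1 and Ebp were lost (edgeR adjusted p = 0.087 and 0.060). With the replicate number in place of the run, rhythms were called for 8 members in control α (605 genes in all) and 7 in doxycycline β cells (688). For doxycycline in β cells the block gave 3 higher and 11 lower (6862 of 15188 genes called in all), and 3 and 12 with the numbers of ZT0 crossed (7013). Crossing was an alternative added after the data were seen, since same-numbered libraries deviated oppositely at ZT0 (r = -0.39). Hsd17b7 was lost with the numbers as labelled (adjusted p = 0.056). Same-numbered control libraries of α and β cells had r from 0.04 at ZT20 to 0.40 at ZT4, with 0.27 at ZT0. Whether the numbers pair them is not settled either. The block changed no call of the 34 genes in control β against α cells or for doxycycline in α cells, where the numbers crossed also gave 0.

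Leaving out each library in turn gave 28 to 29 genes higher and 2 lower in control β against α cells, 22 to 26 higher and 1 to 2 lower in doxycycline mice, 3 to 4 higher and 8 to 13 lower for doxycycline in β cells, 0 in α cells, and 1 to 3 higher and 2 to 5 lower for the difference. Rhythm counts ran from 0 to 6 in control β, 0 to 16 in control α, 7 to 17 in doxycycline β and 0 to 9 in doxycycline α cells, and differences of rhythm stayed at 0. Low levels make the values of Scd1 and Idi1 less certain. Their lowest libraries stood at 0.911 and 0.842 CPM, both in the later and deeper run.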
